A study of Mus musculus with 2 samples.

Results

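The AP-1 transcription factor family was followed in RNA of acutely dissociated mouse pituitary cells kept in either of 2 RNA stabilizers. Its members were taken by symbol: Fos, Fosb, Fosl1 and Fosl2 of the Fos family, and Jun, Junb and Jund of the Jun family. These are 7 of the 47069 genes in the deposited count table, and all 7 passed a minimum mean of 1 CPM, the count scaled to a library total of 1000000. Cells came from whole pituitaries of randomly cycling female C57BL/6 mice aged 10 to 12 weeks, dissociated with enzymes. The paper states 5 glands and 500000 to 700000 cells per sample for its plated cells. It gives no separate number for the bulk samples. The cells of one sample went into RNA-Best, which is designed to hold single cells and their RNA together, and those of the other into RNAlater, the reference reagent, which does not keep single cells. Neither sample had a drug treatment in its labels. Each stabilizer had 1 library, so no difference below has a replicate check, no test was run, and the stabilizer, the cells of each sample and the library preparation cannot be told apart. Fewer cells of a type and less RNA per cell cannot be told apart in bulk RNA either.

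AP-1 is a dimer of basic leucine zipper (bZIP) proteins that binds short palindromic DNA sites. Jun proteins pair with each other or with Fos proteins, whereas Fos proteins need a partner such as Jun. Most of these genes are immediate-early genes: serum response factor with its ETS partners, and CREB, switch them on within minutes of a stimulus without new protein synthesis, and several of the mRNAs are then destroyed quickly through AU-rich elements in the 3' untranslated region (3' UTR). In pituitary gonadotropes, gonadotropin-releasing hormone (GnRH) induces Fos and Jun through MAP kinases. Enzymatic dissociation of a tissue is itself a known inducer of these genes.

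Promoters of 6 members were found in the RefSeq table (build GRCm38.p6), each from 250 bases before to 50 bases after the annotated start, and 4 are shown because their genes had the largest counts of the family: Fos, Jun and Fosb, which were lower in RNA-Best, and Junb, which differed little. Capitals mark the matches to the motifs searched on both strands: TGACGTCA (the cAMP response element, CRE), TGANTCA (an AP-1 site), the CArG box bound by serum response factor, TATAAA (the TATA box), CCAAT (the CCAAT box, bound by NF-Y) and GGGCGG (the GC box, bound by SP1 factors). TGACG, the core of the CRE, and TGACATCA, a variant AP-1 site known from the Jun gene, were added after the sequences had been seen. TGACG lies within TGACGTCA, so these overlap where both occur.
Fos promoter, chr12:85473640-85473939, + strand: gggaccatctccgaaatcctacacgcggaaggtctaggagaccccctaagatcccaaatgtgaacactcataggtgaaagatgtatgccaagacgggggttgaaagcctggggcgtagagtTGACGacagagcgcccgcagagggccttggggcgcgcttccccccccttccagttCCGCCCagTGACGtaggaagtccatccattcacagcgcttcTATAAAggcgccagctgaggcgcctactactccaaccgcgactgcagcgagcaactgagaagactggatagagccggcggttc
Fosb promoter, chr7:19309996-19310295, - strand: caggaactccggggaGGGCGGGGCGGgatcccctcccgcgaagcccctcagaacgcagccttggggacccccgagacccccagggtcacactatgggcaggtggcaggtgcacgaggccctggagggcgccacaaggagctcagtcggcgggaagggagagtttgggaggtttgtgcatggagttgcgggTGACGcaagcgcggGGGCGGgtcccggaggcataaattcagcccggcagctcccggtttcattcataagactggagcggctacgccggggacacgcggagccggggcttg
Jun promoter, chr4:95052173-95052472, - strand: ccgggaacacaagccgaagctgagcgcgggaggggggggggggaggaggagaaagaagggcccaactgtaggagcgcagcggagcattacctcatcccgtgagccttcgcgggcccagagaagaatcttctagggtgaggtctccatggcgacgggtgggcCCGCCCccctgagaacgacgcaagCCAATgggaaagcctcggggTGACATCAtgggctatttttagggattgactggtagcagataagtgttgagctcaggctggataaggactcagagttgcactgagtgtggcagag
Junb promoter, chr8:84978699-84978998, - strand: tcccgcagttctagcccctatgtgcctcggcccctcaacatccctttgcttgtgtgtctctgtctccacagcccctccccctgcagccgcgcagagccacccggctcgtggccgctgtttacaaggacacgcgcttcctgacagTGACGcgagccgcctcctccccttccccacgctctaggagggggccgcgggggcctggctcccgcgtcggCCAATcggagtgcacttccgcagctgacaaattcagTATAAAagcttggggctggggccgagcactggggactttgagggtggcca
The Fos window held TATAAA at -33 and TGACG at -129 and -66, counted from the RefSeq start, and the reverse complement of GGGCGG at -74. In the Jun window, TGACATCA began at -45, CCAAT at -65 and the reverse complement of GGGCGG at -89. The Fosb window held TGACG at -60 and 3 copies of GGGCGG, of which a pair at -235 and -230 overlaps. In the Junb window, CCAAT began at -36 and TGACG at -106, and TATAAA began at the RefSeq start, which lies 30 bases upstream of the GENCODE start. The RefSeq starts of Fosl2 and Jund, whose windows are not shown, lie 671 and 1210 bases from the GENCODE starts, so these 2 windows may not be at the start of the counted gene. None of the 6 member windows held the full CRE, the AP-1 site or a CArG box, which are in 1.79%, 7.81% and 1.63% of the 32851 promoters in the table. The TATA box was in 2 of the 6 (13.6% of all promoters), the CCAAT box in 2 (37.4%), the GC box in 4 (35.7%), the CRE core in 3 (20.8%) and the variant AP-1 site in 1 (3.62%). These are matches of letters in a short window and do not show binding. Sites more than 250 bases before the start were not searched, so a motif absent here may lie farther upstream.

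Gene counts summed to 53915047 for RNA-Best and 44917492 for RNAlater. The hormone genes Prl and Gh took 29.7% of RNA-Best counts and 23.2% of RNAlater counts, so a larger share of reads was left for other genes in RNAlater. The median log2 ratio of RNA-Best to RNAlater over the 16504 genes that passed the 1 CPM minimum was -0.18, and member ratios are given below also relative to this median. Scaling by TMM, a trimmed mean of gene ratios, added 0.17 to every log2 ratio, DESeq2 size factors added 0.18, and leaving Prl and Gh out of the totals added 0.13. Ratios carry a pseudocount of 0.5 CPM, and the 95% intervals in brackets are exact conditional binomial intervals without it (for differences between ratios, from the Poisson variance of the counts), which cover counting error only.

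The 7 AP-1 genes together made up 0.702% of all counts in RNA-Best (7022 CPM) and 0.970% in RNAlater (9703 CPM). All 7 were lower in RNA-Best by column total, but they fell into unequal groups: the 4 Fos family genes and Jun were 1.42-fold to 2.0-fold lower, whereas Junb and Jund were within 1.09-fold. Among all genes 67% were lower in RNA-Best, so the direction alone is common in these libraries. After TMM scaling, 5 of 7 members were lower, against 51.4% of all genes, since Junb and Jund then lay above 0.

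Fos (ENSMUSG00000021250.13, chr12:85473890-85477273, + strand), the founding member and a standard readout of recent stimulation, was counted 121629 times in RNA-Best (2256 CPM) and 144323 times in RNAlater (3213 CPM). It was 1.42-fold lower in RNA-Best and the most abundant member per length in both libraries. Positions here and below are those of GENCODE M21 on GRCm38, and the identifiers are those of the deposited table. Relative to the median of all genes its log2 ratio was -0.33, and 22.8% of genes had a lower ratio than Fos.

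Fosb (ENSMUSG00000003545.2, chr7:19302696-19310051, - strand), which encodes FosB and by splicing the truncated ΔFosB, was at 785 CPM with RNA-Best against 1361 CPM with RNAlater, for a log2 ratio of -0.79 (-0.81 to -0.78). Fosb was thus 1.73-fold lower in RNA-Best, the next largest ratio of the family after Fosl1. Counts per gene cannot separate its 7 annotated transcripts, so the share of the ΔFosB form was not measured.

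Fosl1 (ENSMUSG00000024912.5, chr19:5447547-5455946, + strand), which encodes FRA1 and is a slower, AP-1-dependent member, was the least abundant, also per length, at 40.0 CPM (2156 counts) with RNA-Best against 80.1 CPM with RNAlater (3597 counts). Its log2 ratio of -0.99 (-1.08 to -0.92) was the lowest of the family and sat at the edge of 2-fold. Relative to the median of all genes it was -0.82, and 5.08% of genes had a lower ratio. Without a pseudocount the ratio was -1.0, so whether Fosl1 counts as 2-fold lower depends on that choice.

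Fosl2 (ENSMUSG00000029135.10, chr5:32135801-32157842, + strand), which encodes FRA2 and has the longest transcript of the family, was at 242 CPM with RNA-Best against 384 CPM with RNAlater. Its log2 ratio was -0.66 (-0.70 to -0.63), or -0.49 relative to the median of all genes. Summed over the 4 Fos family genes, 3323 CPM with RNA-Best stood against 5037 CPM with RNAlater, for a log2 ratio of -0.60 (-0.61 to -0.59).

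**Figure D1:**
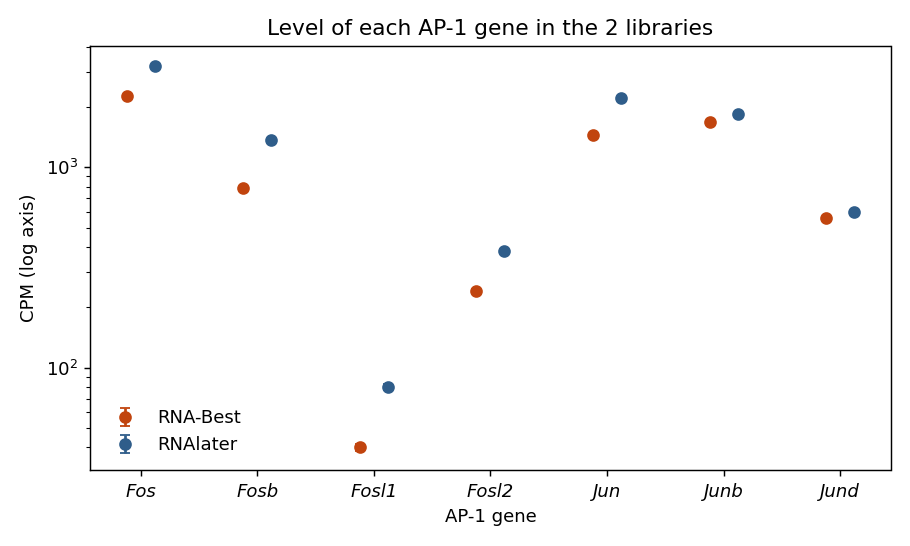
CPM of each AP-1 gene (log axis) in the RNA-Best and RNAlater libraries, 1 point per library, with exact 95% Poisson intervals that cover counting error only and are smaller than the symbols. The points of Junb (1687 and 1842 CPM) and Jund (559 and 596 CPM) lie close together, whereas those of Fosl1 (40.0 and 80.1 CPM) lie farthest apart; Junb and Jund change sides under the other scalings.

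Jun (ENSMUSG00000052684.4, chr4:95049034-95052222, - strand), which encodes c-Jun, the strongest activator among the Jun proteins, was at 1453 CPM (78337 counts) with RNA-Best against 2227 CPM with RNAlater (100010 counts). Its log2 ratio of -0.62 (-0.63 to -0.60) lay among those of the Fos family and was -0.44 relative to the median of all genes. Jun thus differed from the other Jun genes beyond counting error, which is small at these counts. Log2 ratios of different genes vary more than that, with an SD of 0.47 over genes averaging at least 10 CPM. Of all genes, 17.2% had a lower ratio than Jun.

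Junb (ENSMUSG00000052837.5, chr8:84974484-84978718, - strand), which encodes an immediate-early Jun protein of weaker activity, was at 1687 CPM with RNA-Best against 1842 CPM with RNAlater. Its log2 ratio was -0.13 (-0.14 to -0.11) by column total but 0.05 with TMM, 0.06 with DESeq2 size factors and 0.00 without Prl and Gh, so its direction is set by the scaling.

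Jund (ENSMUSG00000071076.5, chr8:70698949-70700616, + strand), the member known for steady expression in resting cells, was at 559 CPM with RNA-Best against 596 CPM with RNAlater. Its log2 ratio was -0.09 (-0.12 to -0.07) by column total, 0.08 with TMM, 0.09 with DESeq2 size factors and 0.03 without Prl and Gh, a change of sign like that of Junb. Relative to the median of all genes, Junb stood at 0.05 and Jund at 0.08, both slightly above it. Summed over the 3 Jun family genes, the level was 3699 CPM with RNA-Best against 4665 CPM with RNAlater, for a log2 ratio of -0.33 (-0.34 to -0.33).

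By fixed limits of size, 4 of the 7 members (Fosb, Fosl1, Fosl2 and Jun) were at least 1.5-fold lower in RNA-Best by column total, against 18.8% of all genes. With TMM the count was 2 (Fosb and Fosl1), against 11.5% of all genes. It was also 2 with DESeq2 size factors and without Prl and Gh, where the share of all genes was not counted. By column total, none was at least 2-fold lower, against 4.99% of genes, and none was at least 2-fold higher, against 0.273%. The median log2 ratio of the 7 members was -0.62, which is -0.44 relative to the median of all genes. With 7 members chosen by name these counts describe the family and carry no test.

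**Figure D2:**
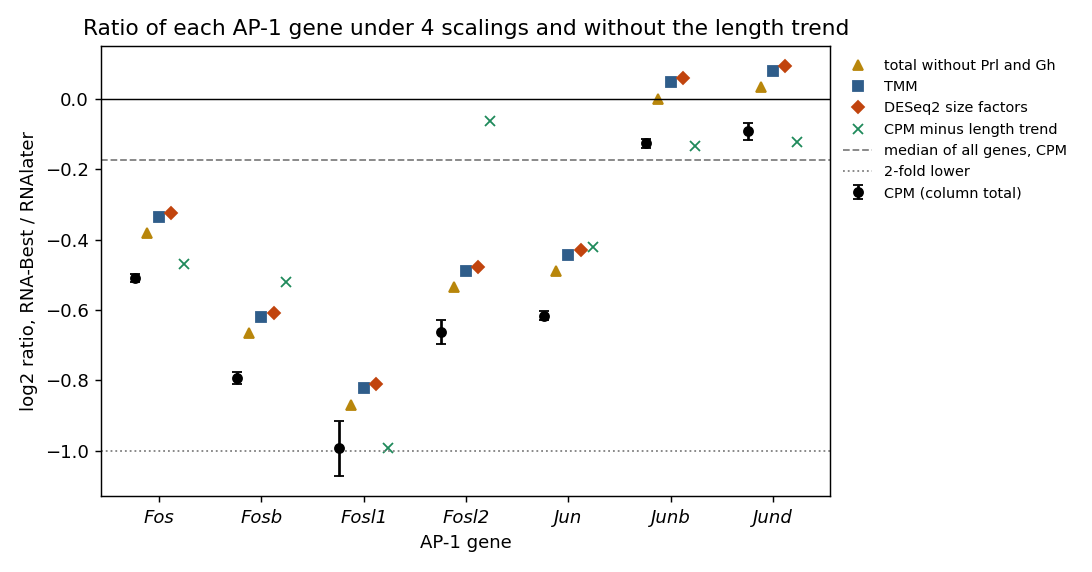
Log2 ratio of RNA-Best to RNAlater for each AP-1 gene under 4 scalings and after subtraction of the trend on transcript length; bars on the CPM points are 95% counting intervals, the dashed line is the median of all genes and the dotted line marks 2-fold lower. Fos, Fosb, Fosl1, Fosl2 and Jun stay below 0 in every version. Junb and Jund lie below 0 by column total (-0.13 and -0.09) and after subtraction of the length trend (-0.13 and -0.12). They lie at or above 0 with TMM (0.05 and 0.08), DESeq2 size factors and the totals without Prl and Gh.

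Ratios between members within a library do not depend on scaling. For every Jun transcript there were 2.35 Fos transcripts per length in RNA-Best and 2.18 in RNAlater, a log2 difference of 0.11 (0.09 to 0.12), so Fos and Jun differed between the libraries by similar amounts. Fos relative to Junb was 1.15 per length in RNA-Best and 1.5 in RNAlater, a log2 difference of -0.38 (-0.40 to -0.37). Within the Jun family, Jun relative to Junb was 0.489 against 0.686, a log2 difference of -0.49 (-0.51 to -0.47). The closest pair was Junb and Jund, at 2.78 and 2.85 Junb per Jund, a log2 difference of -0.03 (-0.06 to -0.01). Among the 10 pairs compared, the widest gap was Fosl1 relative to Jund, with a log2 difference of -0.91 (-0.99 to -0.83).

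The make-up of AP-1 mRNA was compared per length, as CPM per kb of the longest annotated transcript. In RNA-Best the order was Fos (1070.2 CPM per kb), Junb (933), Jun (456), Jund (335), Fosb (208), Fosl2 (37.0) and Fosl1 (21.5). In RNAlater it was Fos (1524), Junb (1018), Jun (698), Fosb (359.8), Jund (357), Fosl2 (58.7) and Fosl1 (43.0). Fosb and Jund changed places: Fosb was at 0.619 of Jund (0.610 to 0.629) in RNA-Best and at 1.01 (0.992 to 1.02) in RNAlater, where the pair did not differ beyond counting error. All other neighbours in both orders differed beyond their counting intervals. Per kb of coding sequence, Fosb stood above Jund in both libraries (774 and 546 in RNA-Best, 1342 and 583 in RNAlater), and it was Jun and Junb that changed places, with Jun (2222) above Junb (1785) in RNAlater and below it in RNA-Best (1450.1 and 1635). Which pair changed places therefore rests on the length used. Among the genes matched to the annotation, Fos held rank 39 per kb in RNA-Best and rank 21 in RNAlater, and Fosl1 ranks 2840 and 1431.

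**Figure D3:**
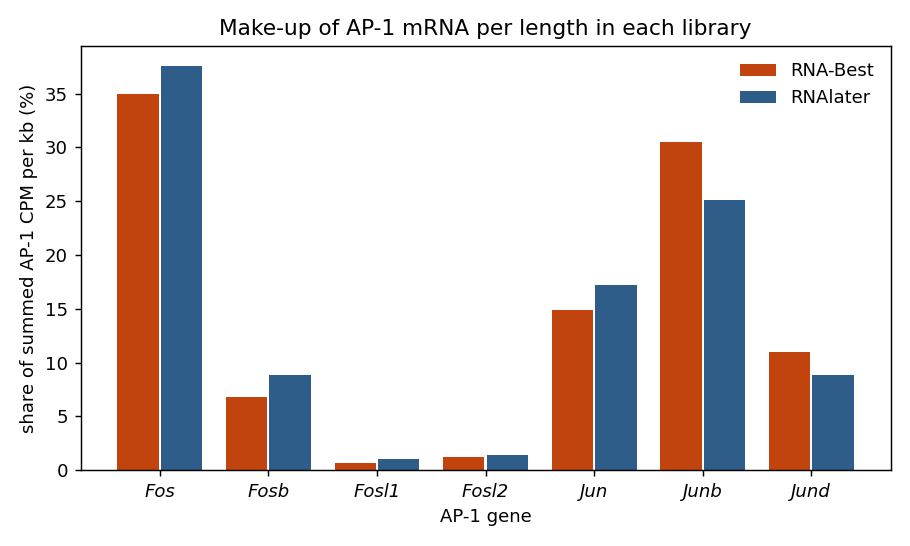
Share of the summed AP-1 CPM per kb of transcript (%) held by each gene in each library, as bars from 0. Junb (30.5% in RNA-Best, 25.1% in RNAlater) and Jund (11% and 8.80%) hold larger shares in RNA-Best, and Fos (35% and 37.5%), Fosb (6.78% and 8.86%) and Jun (14.9% and 17.2%) hold larger shares in RNAlater.

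Since Fos proteins act as partners of Jun proteins, the family sums were also set against each other. The 4 Fos genes summed to 1336 CPM per kb in RNA-Best and 1986 in RNAlater, and the 3 Jun genes to 1723 and 2074. Fos family mRNA was therefore 0.775 of Jun family mRNA in RNA-Best and 0.957 in RNAlater. The log2 balance differed by -0.30 between the libraries (-0.32 to -0.29), with fewer Fos family transcripts per Jun family transcript in RNA-Best. This holds for the sums and not for each pair. Fos relative to Junb differed by -0.38, whereas Fos relative to Jun differed by 0.11, in the other direction. With coding length in place of transcript length the balance was 0.840 and 1.01, so which family was ahead in RNAlater depends on the length, while the difference between the libraries kept its direction. These are mRNA ratios, and no protein or dimer was measured.

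Across all genes, longer transcripts were lower in RNA-Best, and the members span 1668 to 6537 bases. The trend of all genes on length was subtracted to see where each member stood among genes of its size. All 7 members lay below the trend, against 48.9% of the 16453 genes with a length. Fosl1, with a transcript of only 1864 bases, had a residual of -0.99, and 0.577% of genes stood lower. The residual was -0.52 for Fosb (3782 bases), -0.47 for Fos (2108 bases) and -0.42 for Jun (3189 bases). Fosl2, whose 6537-base transcript has a trend value of -0.60, was left at -0.06, close to other genes of its length. Junb (1809 bases) and Jund (1668 bases) were at -0.13 and -0.12, with 33.0% and 34.2% of genes lower. The longest annotated transcript need not be the one expressed in these cells, and Fosb, Fosl1, Junb and Jund carry earlier gene versions in the deposited table than in GENCODE M21, so the models counted by the authors may differ in length.

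**Figure D4:**
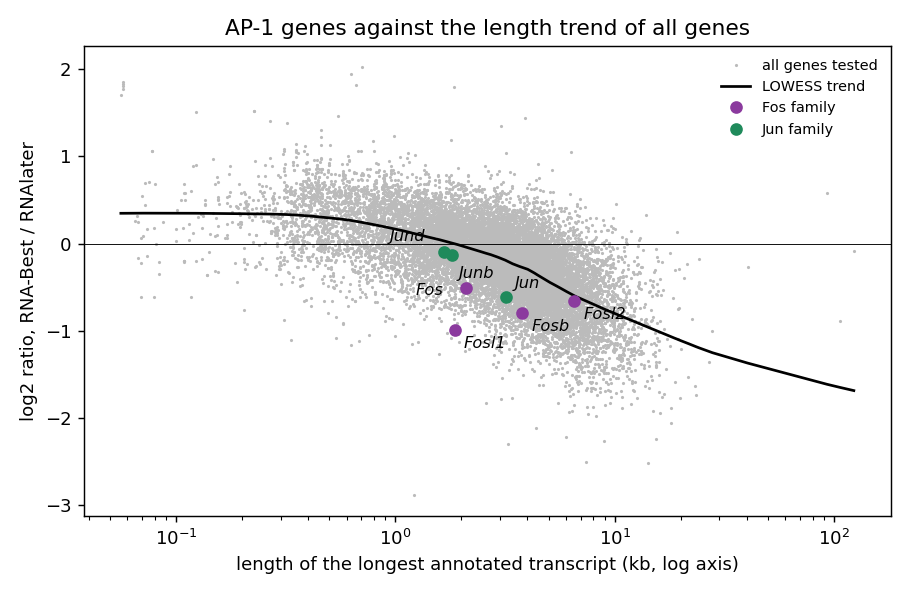
Log2 ratio of RNA-Best to RNAlater against the length of the longest annotated transcript (kb, log axis) for all genes tested (grey), with the LOWESS trend (line) and the AP-1 genes of the Fos and Jun families (coloured). Fosl1 lies farthest below the line, Fosl2 lies almost on it, and Junb and Jund lie slightly below it in CPM.

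All 3 Jun genes have 1 exon in the annotation, and the longest transcript of each Fos gene has 4. This split is the same as that between the families, so exon number and family cannot be told apart here. The 4 Fos genes ran from -0.99 to -0.51. Of the genes with 1 exon, Jun lay within that range at -0.62, and Junb (-0.13) and Jund (-0.09) lay above it. A relation of exon number to ratio was not tested.

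AU-rich elements were searched in the annotated 3' UTRs because they mark mRNAs for fast decay. ATTTA was present in all 7 members and in 70.1% of the 13721 tested genes with a 3' UTR. Per kb of 3' UTR, Fos held 4.91 copies, Junb 4.12, Jun 3.24, Jund 1.88, Fosl2 1.72, Fosl1 1.57 and Fosb 0.466, beside a median of 1.31 over tested genes. The longer element TTATTTATT was in 2 members, Fos and Fosl2, and in 8.26% of tested genes. The stretch around each is shown with this element in capitals, in the sense of the mRNA and written with T.
Fos 3' UTR element: tgttttcaatTTATTTATTaagatggatt
Fosl2 3' UTR element: atttattttaTTATTTATTttaaatgttt
Side by side with the ratios, the 3 members with the lowest density of ATTTA (Fosb, Fosl1 and Fosl2) had the 3 lowest log2 ratios, at -0.79, -0.99 and -0.66. Jund, with a density near that of Fosl2, had the highest ratio, at -0.09. With the length trend subtracted the order did not hold: Fosl2 was highest at -0.06, and Fos, with the highest density, was at -0.47. A relation of density to ratio was not tested. The element is a match of letters, and mRNA decay was not measured.

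Several members share bases with genes on the opposite strand, and the strand setting of the counting was not given in the sources used here. Fosl1 shares 1163 of its 2033 exon bases with Ccdc85b, which was counted at 46.6 CPM with RNA-Best against 46.0 CPM with RNAlater, for a log2 ratio of 0.02. Fosl1 and Ccdc85b reads therefore may not be fully separated, and the Fosl1 level is uncertain. Junb shares 173 bases with Prdx2 (228 and 171 CPM, log2 ratio 0.41). Jun shares 232 bases with Junos (2.54 and 2.63 CPM), an antisense transcript far weaker in CPM than Jun. Jund shares 877 of its 1668 exon bases with Gm11175, which is listed at 0 in both libraries. How reads over the shared bases were assigned is not known, so the Jund level is uncertain too. Counts of Fosl1, Jun and Junb were whole in both libraries, whereas those of Fos, Fosb, Fosl2 and Jund were partly fractional, and the source of the fractions was not traced.

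The genes around AP-1 were taken from lists of textbook members. In this and the following list paragraphs, the counts are read against all genes. By column total, 67% of all genes were lower in RNA-Best, 18.8% at least 1.5-fold and 4.99% at least 2-fold. With TMM, 51.4% of all genes were lower. The counts past 1.5-fold and 2-fold are by column total. Of the 13 tested bZIP partners, which dimerize with Fos or Jun proteins, 12 were lower in RNA-Best (11 with TMM), 5 by at least 1.5-fold, with a median log2 ratio of -0.48. Atf3, itself stress-induced, was at 977 CPM with RNA-Best against 1171 CPM with RNAlater, for a log2 ratio of -0.26. Atf2, a partner of c-Jun, had -0.26, Maff -0.35 and Jdp2, a repressive partner, -0.40. The ends of the list were Atf7 at -0.98 and Batf at 0.01, a lymphoid factor at 7.81 and 7.73 CPM.

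Of the 16 transcription factors that induce Fos and Jun genes, 14 were lower (14 with TMM), 10 by at least 1.5-fold and 2 by at least 2-fold, with a median of -0.70. Srf, the serum response factor, was at 145 and 193 CPM in RNA-Best and RNAlater, a log2 ratio of -0.41, and its partner Elk1 was level at 15.2 and 15.0 CPM. Creb1 had -0.29. Mrtfb, a coactivator of serum response factor, was lowest at -1.07, and Crem, which includes cAMP-induced repressor forms, was highest at 0.11.

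Of 20 kinases of the MAP kinase pathway to AP-1, 19 were lower by column total and 14 with TMM, 2 by at least 1.5-fold, with a median of -0.32. The kinase gene Mapk3, at 80.8 and 84.2 CPM in RNA-Best and RNAlater (log2 ratio -0.06), and the JNK gene Mapk8 (-0.10) were above the median of all genes. Both were above 0 with TMM, at 0.11 and 0.07. The ends were Rps6ka3 at -0.73 and Map2k1 at 0.00.

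Of 9 genes for turnover of AP-1 mRNA and protein, 8 were lower, also with TMM, and 5 by at least 1.5-fold, with a median of -0.59. Zfp36, which encodes the AU-rich element binding protein tristetraprolin and is itself immediate-early, was at 606 CPM with RNA-Best against 1046 CPM with RNAlater, for a log2 ratio of -0.79, and its relative Zfp36l1 was lowest at -0.93. The ubiquitin ligase genes that act on Jun proteins stood at -0.51 (Itch) and 0.01 (Cop1).

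Of 15 tested textbook AP-1 targets, 13 were lower by column total and 11 with TMM, 2 by at least 1.5-fold, with a median of -0.35. Plaur, the urokinase receptor gene, was lowest at -0.60, beside Ccnd1 (cyclin D1) at -0.60, Hmox1 at -0.47 and Timp1 at -0.21. Among gonadotrope targets, Fshb, the follicle-stimulating hormone subunit gene, was at 67.1 CPM with RNA-Best against 52.0 CPM with RNAlater, for a log2 ratio of 0.36 and the highest of the list. Gnrhr, the GnRH receptor gene, was at 20.4 and 21.8 CPM, a log2 ratio of -0.09 (-0.22 to 0.03), or 0.08 with TMM.

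Of 25 other immediate-early genes, 24 were lower by column total and 20 with TMM, 11 by at least 1.5-fold and 3 by at least 2-fold, with a median of -0.55 against -0.62 for the AP-1 members. As in the AP-1 family, the values were uneven. Egr1, a zinc finger factor induced together with Fos, had -0.93, whereas Ier2 (-0.03), Btg2 (-0.11) and the phosphatase gene Dusp1 (-0.17) were near Junb and Jund, and with TMM stood at 0.14, 0.07 and 0.00. Nr4a3 was lowest at -1.15 and Rgs2 highest at 0.11.

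**Figure D5:**
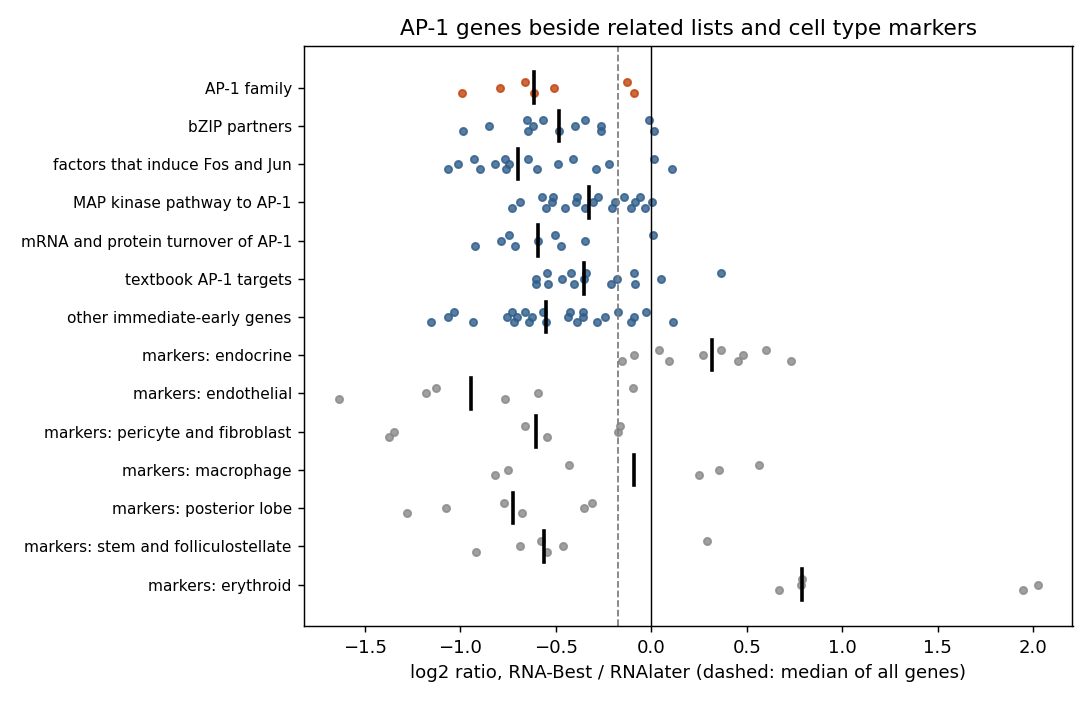
Log2 ratio of RNA-Best to RNAlater for each gene that passed the 1 CPM minimum (points), by list, with the list median (bar) and the median of all genes (dashed line). The AP-1 median (-0.62) lies beside those of the other immediate-early genes (-0.55) and the factors that induce Fos and Jun (-0.70), while endocrine markers lie at 0.32, endothelial markers at -0.95 and erythroid markers at 0.79; TMM adds 0.17 to every point.

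Markers of cell types also differed between the libraries. Their counts are by column total, by which 67% of all genes were lower in RNA-Best (51.4% with TMM). Endocrine markers were all detected, as the tissue label requires, at 18.3 to 235654 CPM with RNA-Best. Of the 10, 8 were higher in RNA-Best, and none was lower with TMM. Their summed level was 307185 CPM against 239216 CPM, most of it Prl and Gh. All 6 endothelial markers were lower (5 with TMM), at 338 CPM summed against 645 CPM, from Kdr at -1.63 to Esam at -0.10. All 6 pericyte and fibroblast markers were lower (494 against 617 CPM, Col1a1 lowest at -1.37 and Ogn highest at -0.16). With TMM 5 of these were lower, and with DESeq2 size factors 4. All 6 posterior lobe markers were lower, also with TMM (122 against 221 CPM, Nkx2-1 at -1.28 to Rax at -0.31). Stem and folliculostellate markers were lower for 5 of 6, also with TMM (278 against 415 CPM, Sox9 at -0.92 and Mia at 0.29). Macrophage markers were lower for 3 of 6, also with TMM (177 against 163 CPM, Cx3cr1 at -0.82 and C1qa at 0.56). All 5 erythroid markers were higher (3200.4 against 1130 CPM, Alas2 at 0.67 to Hbb-bt at 2.02). No marker was at 0 in either library. Fos and Jun are induced in many cell types, and the part of these shifts in the AP-1 values was not tested.

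The genes whose 2 levels were most like those of Fos and Jun were found by the summed absolute difference in log2(CPM + 0.5) over the 2 libraries, without regard to length. For Fos they were Hspa5 (2859 and 3085 CPM in RNA-Best and RNAlater, distance 0.40), Dnajb1 (2803 and 2586 CPM, 0.63) and Hsp90ab1 (3030 and 3716 CPM, 0.64), which encode chaperones. For Jun they were Meg3, a long noncoding RNA (1463 and 2142 CPM, 0.07), Hsp90aa1 (1481 and 1835 CPM, 0.31) and Egr1 (1234 and 2353 CPM, 0.32). With 2 libraries this likeness is mainly one of level, and the log2 ratios of the 3 genes nearest Fos ran from -0.29 to 0.12, against -0.51 for Fos.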

How the data were processed

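Poly(A) RNA was measured in 1 library per stabilizer, with groups taken from the stabilizer in the labels. The authors aligned and counted reads with STAR 2.5.1b and featureCounts 1.5.0-p1 on mm10, per the submitters' processing notes, and deposited estimated counts per gene, not normalized. Of the values above 0, 35.4% in RNA-Best and 34.9% in RNAlater were not whole. The options for fractions and strand were not given in the sources used here. The study describes spike-in RNAs, which were not used here.

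Counts were scaled to CPM by column total (53915047 and 44917492). A count of 0 allows up to 3 counts, 0.0556 and 0.0668 CPM. Symbols, positions and lengths came from GENCODE M21 (GRCm38), which matched 46574 of 47069 identifiers. Log2 ratios had 0.5 CPM added to both levels, over genes averaging 1 CPM or more. Counts were rounded for 95% exact conditional binomial intervals, for thinning and for scaling factors in R 4.3.3 (TMM from edgeR 4.0.16, size factors from DESeq2 1.42.0). Intervals of differences between log2 ratios used the Poisson variance of the counts. The length trend was a LOWESS with a span of 0.2 (statsmodels 0.14.6, Python 3.11.15). Steps were tested on simulated data. Gene lists hold textbook members. Named in each were genes marked beforehand and the ends of the list (1 of the marked genes is not reported here), with the 3 genes nearest Fos and Jun in level. The members and lists were chosen with earlier results of these data known.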

Additional observations from a re-analysis of the deposited data

How the results depend on the processing

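No paired analysis was possible because RNA-Best and RNAlater had 1 library each, so none could be left out either. The count of members lower in RNA-Best was 7 by column total and 5 under TMM, DESeq2 size factors and totals without Prl and Gh. No member was at least 2-fold lower, except that Fosl1 made it 1 with a pseudocount of 0.1 CPM, at equal depth (1 thinning draw) and without a pseudocount. Another thinning draw gave 0, and both this draw and the absent pseudocount were chosen after seeing the data. The count at least 1.5-fold lower (4) was 2 under TMM, 2 under DESeq2 size factors, 2 without Prl and Gh and 1 with the length trend removed, in comparisons added after seeing the data. Of all genes, 18.8% passed this limit by column total and 11.5% under TMM. The share was counted for these 2 settings only, so the other counts cannot be set against all genes. The median of members relative to all genes (-0.44) was -0.50 with a pseudocount of 5 CPM, -0.55 without a filter on low values and -0.42 over genes averaging 10 CPM or more. The summed Fos family (-0.60) moved to -0.43 (TMM), -0.42 (DESeq2 size factors) and -0.47 (no Prl and Gh), and the summed Jun family (-0.33) was -0.16, -0.15 and -0.21. The difference in the balance of the families (-0.30) was -0.27 with the union of exons and -0.27 with coding length. These shifts follow from the construction of each scaling, filter or length. Over 12 alternatives, Fos, Fosb, Fosl1, Fosl2 and Jun kept their sign, and Junb and Jund each changed sign under 3, the other scalings. Most of the 12 say little about a sign. Filters and pseudocounts cannot change the sign of a member ratio, and rounding and thinning moved these ratios little. The kept signs therefore rest on the other scalings and the length trend. Sums carry no pseudocount, filter or length trend, so these alternatives gave them no value. Depth limits Fosl1 most, at 2156 and 3597 counts.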

Other observations

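Relative to the trend of all genes on transcript length, below which 48.9% of all genes lay, 23 of the 25 other immediate-early genes stood lower than it, with a median residual of -0.38 on the log2 scale, beside -0.42 for the 7 AP-1 members. Of 13 bZIP partners 11 lay below it (median -0.33), of 16 factors that induce Fos and Jun genes 12 (median -0.31), of 15 textbook AP-1 targets 13 (median -0.32) and of 9 turnover genes 6 (median -0.23). The 20 MAP kinase pathway genes had a median residual of -0.04, with 14 below the trend. Markers of some cell types also lay below: endothelial markers had a median residual of -0.82 (6 of 6 below), stem and folliculostellate markers -0.52 (5 of 6), pericyte and fibroblast markers -0.36 (5 of 6) and posterior lobe markers -0.27 (6 of 6). Macrophage markers had 0.11 (2 of 6), endocrine markers 0.21 (2 of 10) and erythroid markers 0.70 (0 of 5). Among single genes, Fosl1 (-0.99), Zfp36l1 (-0.76) and Zfp36 (-0.65) stood far below the trend, whereas Cop1 (0.64), Creb1 (0.43) and Mapk8 (0.42) stood above it.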
